A study of Mus musculus with 20 samples.

Results

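The genes described here encode the subunits of oxidative phosphorylation (OXPHOS), the mitochondrial machinery that turns electrons from food into ATP. They were chosen by name alone: protein-coding genes of the GENCODE M21 annotation whose symbols carry the Nduf, Sdh, Uqcr, Cox or Atp5 stems of the 5 complexes, or the mitochondrial mt-Nd, mt-Cytb, mt-Co and mt-Atp stems. The rule found 97 genes among 46603 gene identifiers. Of these, 84 lie on nuclear chromosomes and 13 on the mitochondrial genome. By complex the nuclear genes number 37 for complex I, 4 for complex II, 8 for complex III, 18 for complex IV and 17 for complex V, and the mitochondrial genes 7, 0, 1, 3 and 2. A name is not a function in every case: Ndufa4 was named for complex I and has since been assigned to complex IV, Cox7a2l is an assembly factor of supercomplexes, and Atp5s is not a structural subunit.

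Complexes I and II feed electrons from NADH and from succinate into ubiquinone, complex III hands them to cytochrome c, complex IV reduces oxygen, and complex V, the ATP synthase, uses the proton gradient that complexes I, III and IV build. Complex II is encoded wholly in the nucleus and is also an enzyme of the TCA cycle, whereas the other complexes are mosaics of nuclear and mitochondrial products. Hepatocytes are rich in mitochondria and spend ATP on urea synthesis, gluconeogenesis and secretion, and a regenerating liver must go on with these tasks while its cells divide.

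The samples were livers of male mice aged 2 months with a C57BL/6J strain label, measured by bulk sequencing of poly(A) RNA. Wild-type mice (WT) were purchased. EedHepKO mice (KO) carry loxP sites around Eed exons 3 and 6 and an Alb:Cre transgene, in which the albumin promoter drives Cre in hepatocytes. Whether the other cells of the liver keep Eed was not measured here. EED is a core subunit of polycomb repressive complex 2 (PRC2), which methylates histone H3 at lysine 27. Each genotype gave 5 samples at baseline, which are the lobes 1 to 3 taken out at partial hepatectomy (PHx), and 5 from lobes 4 to 6 of the same animals afterwards, at 30 h (1 sample), 40 h (2 samples) and 48 h (2 samples). Lobe and PHx cannot be told apart, and neither can genotype and colony of origin. The design asks how loss of PRC2 in hepatocytes alters expression in resting and regenerating liver.

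Libraries held 21634890 to 30461351 counts. Eed was at 14.6 to 23.2 CPM (counts scaled to a library of 1000000, here by the TMM-scaled total unless said otherwise) in the 10 WT libraries and at 2.75 to 7.52 CPM in the 10 KO libraries, with no overlap. WT baseline replicate 1 stood apart, with 11.6% of its counts in Gm42418, a locus over a ribosomal RNA repeat, against 0.103% to 2.22% in the others. TMM factors, which rescale each library to the bulk of its genes, ran from 0.67 to 0.81 in WT at baseline, 0.89 to 1.07 in WT after PHx, 0.98 to 1.19 in KO at baseline and 0.98 to 1.51 in KO after PHx. They bear on every direction given here, because scaling by plain library totals moved the median log2 fold change of all 14661 genes tested from -0.03 to 0.45 for KO against WT at baseline, from -0.01 to 0.37 for the same contrast after PHx, from 0.04 to 0.40 for after PHx against baseline in WT and from 0.10 to 0.37 in KO. The share of all called genes that were higher moved with it, from 69.5% to 96.9%, from 66.1% to 92.9%, from 56.9% to 86.7% and from 59.1% to 80.9%. Changes of the OXPHOS genes are therefore also given relative to the median of all genes tested. A gene is called where its Benjamini-Hochberg adjusted p in edgeR's quasi-likelihood test is under 0.05 over all genes tested.

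The 79 nuclear members that passed the filter on low counts had a median level of 72.9 CPM per kb of exon over the 20 samples, and 28 lay over 100 CPM per kb. Cox6a1, the ubiquitous form of subunit VIa of complex IV, had the highest mean of these nuclear members with 355 CPM per kb. Cox8a stood at 321 and Atp5a1, the alpha subunit of the ATP synthase catalytic head, at 315 CPM per kb, and Cox8a was the higher of these by group mean at baseline and Atp5a1 after PHx. The tissue isoforms of complex IV fell apart by the same measure: Cox4i1 stood at 217, Cox6b1 at 284 and Cox7a2 at 133 CPM per kb, whereas Cox7a1, the form of heart and skeletal muscle, stood at 1.06 and Cox6b2, the form of testis, at 1.26. The 5 members that were not tested are all such isoforms. Cox7b2 and Cox8c had 0 counts in every library, while Cox4i2 reached at most 10 counts, Cox6a2 5 and Cox8b 1. Among the genes of the c-ring of ATP synthase, which encode the same mature protein, Atp5g3 stood at 178 CPM per kb, Atp5g1 at 15.5 and Atp5g2 at 7.70. Only reads mapping to a single place were counted. Of the windows of 75 bases along the mRNAs, 35.8% for Atp5g2, 7.29% for Atp5g1 and 0% for Atp5g3 occur in another annotated gene. The part of this in the 3 levels was not tested.

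Promoters of nuclear OXPHOS genes are known for binding NRF1, a factor that coordinates respiratory genes, and GABP of the ETS family. The windows from 250 bases before to 50 bases after each RefSeq start (build GRCm38.p6) were searched on both strands for exact letters. Windows were found for 68 of the 84 nuclear members, 73 windows in all, beside 32817 windows of all genes. The NRF1-type letters GCATGCGC or GCAGGCGC were in 28.8% of member windows and 6.45% of all windows, the ETS-type letters CCGGAAG in 21.9% and 8.86%, the YY1-type letters AAGATGGCG in 9.59% and 1.40%, and the TATA-type letters TATAAA in 11% and 13.6%. The median number of CpG dinucleotides was 19 in member windows and 7 in all windows. A match is a string of letters and not a measured binding site. The windows of 5 members with large or firm changes between groups are shown 5′ to 3′ on the gene's strand, with the NRF1-type and ETS-type letters in capitals on either strand.
Sdha, chr13:74350191-74350490, minus strand: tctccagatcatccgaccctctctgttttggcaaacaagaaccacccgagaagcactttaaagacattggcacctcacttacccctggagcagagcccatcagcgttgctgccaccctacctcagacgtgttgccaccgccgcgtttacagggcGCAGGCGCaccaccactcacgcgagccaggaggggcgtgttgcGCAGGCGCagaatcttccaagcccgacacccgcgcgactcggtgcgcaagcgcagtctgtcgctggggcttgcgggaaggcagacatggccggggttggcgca
Sdhb, chr4:140961021-140961320, plus strand: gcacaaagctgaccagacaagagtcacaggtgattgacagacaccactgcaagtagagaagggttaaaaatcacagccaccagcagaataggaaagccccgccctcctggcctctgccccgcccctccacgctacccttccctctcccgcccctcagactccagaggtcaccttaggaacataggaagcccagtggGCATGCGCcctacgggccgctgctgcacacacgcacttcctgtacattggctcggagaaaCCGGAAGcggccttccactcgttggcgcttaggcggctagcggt
Ndufs8, chr19:3912725-3913024, minus strand: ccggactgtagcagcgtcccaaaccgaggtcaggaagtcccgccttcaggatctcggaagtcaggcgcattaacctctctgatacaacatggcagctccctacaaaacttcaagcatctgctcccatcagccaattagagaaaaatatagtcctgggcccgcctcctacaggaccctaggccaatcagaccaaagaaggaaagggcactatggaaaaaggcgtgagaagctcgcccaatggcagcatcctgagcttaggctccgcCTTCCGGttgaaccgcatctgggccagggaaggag
Ndufb3, chr1:58586147-58586446, plus strand: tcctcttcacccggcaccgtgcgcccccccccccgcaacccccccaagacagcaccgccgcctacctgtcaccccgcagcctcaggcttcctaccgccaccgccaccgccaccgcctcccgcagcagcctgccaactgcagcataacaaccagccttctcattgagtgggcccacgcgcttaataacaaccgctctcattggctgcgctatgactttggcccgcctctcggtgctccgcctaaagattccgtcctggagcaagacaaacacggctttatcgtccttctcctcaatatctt
Cox6b2, chr7:4753045-4753344, minus strand: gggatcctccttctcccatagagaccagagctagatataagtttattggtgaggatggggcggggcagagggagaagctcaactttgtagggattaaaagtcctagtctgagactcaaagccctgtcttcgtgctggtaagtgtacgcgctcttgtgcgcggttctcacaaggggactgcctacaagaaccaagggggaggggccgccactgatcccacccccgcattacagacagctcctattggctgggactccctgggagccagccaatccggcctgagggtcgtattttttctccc
Sdha holds the NRF1-type letters GCAGGCGC in 2 places, Sdhb has 1 NRF1-type and 1 ETS-type match, and Ndufs8 has 1 ETS-type match. Neither Ndufb3 nor Cox6b2 holds any of the searched letters in this window. The window of Sdha has 25 CpG dinucleotides, that of Ndufb3 22, that of Sdhb 15, that of Ndufs8 12 and that of Cox6b2 10.

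In resting liver the median fold change of the subunit genes, KO against WT, lay below that of all genes tested under both scalings, while its sign for the nuclear genes turned with the scaling. The median log2 fold change of the 79 nuclear members was -0.29 under TMM scaling and 0.18 under plain totals, which is -0.26 and -0.27 relative to the median of all genes. For the 13 mitochondrial genes it was -0.68 under TMM scaling and -0.21 under plain totals, or -0.65 and -0.66 relative to all genes. Few single genes passed the test: among nuclear members 3 fell and 1 rose, against 4.89% of all genes called lower and 11.1% called higher, and among mitochondrial genes 7 of 13 fell. Under TMM scaling fold changes lay below 0 for 74 of the 79 nuclear members and 13 of the 13 mitochondrial genes, and 18 and 12 of the genes had an unadjusted p under 0.05. Under plain totals 7 of the 79 and 13 of the 13 lay below 0.

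The nuclear member with the smallest adjusted p was Ndufb3 (ENSMUSG00000026032, chromosome 1, 58586384 to 58595964 of mm10, plus strand), an accessory subunit of the membrane arm of complex I. It was at 62.3, 73.0, 61.4, 65.4 and 56.9 CPM in WT at baseline and at 35.3, 36.8, 36.6, 39.1 and 44.1 CPM in KO at baseline. The highest KO sample lay below the lowest WT sample, and the log2 fold change was -0.73 ± 0.13 (SE, n = 5 per group, edgeR adjusted p = 0.000725). Sdha (ENSMUSG00000021577, chromosome 13, 74322254 to 74350280, minus strand), the flavoprotein of complex II that oxidises succinate, was at 624, 701, 801, 721 and 662 CPM in WT and at 381, 476, 491, 447 and 394 CPM in KO. These groups did not overlap either, and Sdha fell by 0.68 ± 0.22 on the log2 scale (SE, n = 5 per group, edgeR adjusted p = 0.0416). Ndufs1, the large iron-sulphur subunit of complex I, was at 133 to 165 CPM in WT and 94.0 to 128 CPM in KO, a log2 fold change of -0.48 ± 0.16 (SE, n = 5 per group, edgeR adjusted p = 0.0497). In all, 19 of the 79 nuclear members and 12 of the 13 mitochondrial genes had every KO sample below every WT sample under TMM scaling, beside 12.2% of all genes tested. Under plain totals this held for 0 of the 79 nuclear members, so that the groups overlapped for Ndufb3, Sdha and Ndufs1, and for 1 of the 13 mitochondrial genes, mt-Nd2.

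Cox6b2 (ENSMUSG00000051811, chromosome 7, 4751792 to 4753094, minus strand) was the member that rose, from almost no reads. Its counts in WT at baseline were 0, 4, 1, 0 and 0, and those in KO at baseline were 139, 51, 32, 27 and 22. The groups did not overlap, and the fitted log2 fold change of 5.18 ± 1.33 (SE, n = 5 per group, edgeR adjusted p = 0.0115) rests on 5 counts in the whole WT group, so its size is loose. Even in KO the level, 2.01 ± 1.53 CPM (SD, n = 5), stayed far under the 203 ± 23.6 CPM (SD, n = 5) of its somatic counterpart Cox6b1. The other isoform genes of complex IV were not called in this comparison, with Cox7a1 at a log2 fold change of 0.72 (edgeR adjusted p = 0.367), and neither was the complex I gene Ndufa4l2, at 0.05 (0.964).

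By complex, the nuclear medians at baseline under TMM scaling were -0.32 for complexes I, II and III, -0.22 for complex IV and -0.27 for complex V. Under plain totals the mean summed level of each of the 5 complexes was higher in KO, as for complex IV with 2129 CPM against 1821 CPM in WT. For complex II the means were close (1055 CPM in KO and 1045 CPM in WT), and the group medians went the other way (1061 and 1078 CPM). Complex I had 2 called genes of 37 and complex II 1 of 4, both toward lower, while complexes III and V had none. The core subunits Uqcrc1, Uqcrfs1, Cox4i1, Cox5a, Atp5a1 and Atp5b lay between -0.33 and -0.16 and none of them was called. With plain totals the calls of Ndufb3 (-0.26, edgeR adjusted p = 0.178), Sdha (-0.21, 0.473) and Ndufs1 (-0.01, 0.976) ended and only that of Cox6b2 stood. Sdha also lost its call when any single library of these groups was left out, and Ndufs1 in each omission but that of KO baseline replicate 8, and both lost it with no filter (edgeR adjusted p = 0.148 and 0.212). There were 2 nuclear calls without any 1 of the 5 WT libraries or without KO baseline replicate 7, 10 or 11. A fit of only these groups called 31 nuclear members, 30 lower and 1 higher. Of the core subunits above, that fit called Cox4i1 (-0.295, edgeR adjusted p = 0.0342) and Cox5a (-0.285, 0.0344) lower. The share of all genes called in that fit is not given here, and the shares given above belong to the main fit.

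**Figure D1:**
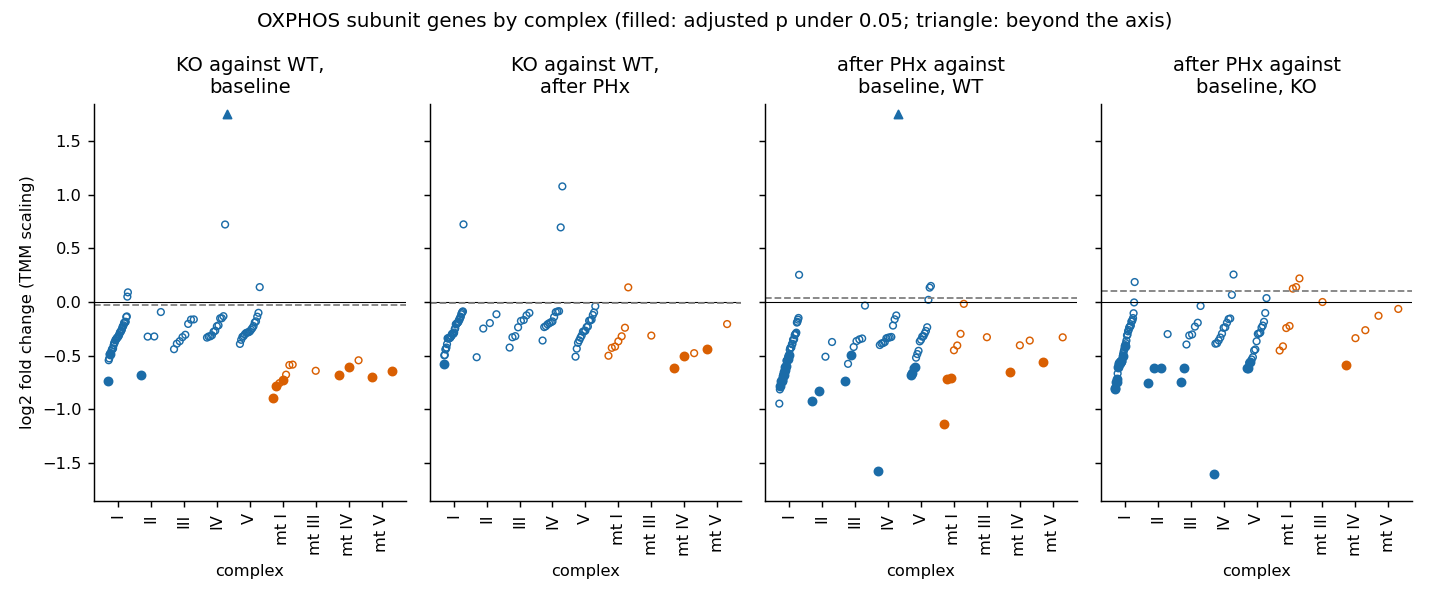
Log2 fold change (vertical axis, TMM scaling) of each tested OXPHOS gene by complex in 4 comparisons, with nuclear genes in blue and mitochondrial genes (mt) in orange, called genes filled, the median of all genes as a dashed line and Cox6b2 as a triangle beyond the axis. Most members lie below the dashed line in each panel, and the nuclear medians at baseline and for KO against WT after PHx turn to 0.18 and 0.10 where plain totals are used.

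The 13 mitochondrial genes encode the hydrophobic core of complexes I, III, IV and V. At baseline mt-Nd2, a complex I core subunit, was at 15212, 13919, 13207, 11756 and 12950 CPM in WT and at 6399, 8745, 8060, 7182 and 8680 CPM in KO. The groups did not overlap, and the log2 fold change was -0.78 ± 0.21 (SE, n = 5 per group, edgeR adjusted p = 0.0131). The other calls were mt-Nd4l (-0.90, 0.00554), mt-Nd4 (-0.73, 0.0223), mt-Atp6 (-0.70, 0.0130), mt-Co3 (-0.68, 0.0243), mt-Atp8 (-0.64, 0.0077) and mt-Co2 (-0.60, 0.0227), each given as log2 fold change and edgeR adjusted p. The abundant mt-Co1, catalytic core of complex IV, was at 34880 to 43720 CPM in WT and 23288 to 29674 CPM in KO, without overlap and without a call (-0.54, edgeR adjusted p = 0.120). Likewise mt-Cytb, at 17417 to 19398 CPM in WT and 9511 to 12891 CPM in KO, was not called (-0.64, edgeR adjusted p = 0.0587), and mt-Nd1, mt-Nd3, mt-Nd5 and mt-Nd6 lay between -0.75 and -0.58. DESeq2 called mt-Co1 (adjusted p = 0.0458), mt-Cytb (0.0116), mt-Nd1 (0.0290) and mt-Nd5 (0.0368) lower as well. The fit of only these groups called these 4 and mt-Nd3 (edgeR adjusted p of 0.000889 to 0.0108), and a time term called mt-Nd3 (0.0397). None of the 7 calls stood under plain totals, where mt-Nd2 was at -0.30 (edgeR adjusted p = 0.130). With no filter only mt-Nd4l of the 7 was called, and without KO baseline replicate 7 there was 1 mitochondrial call.

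Levels cannot be compared between mitochondrial genes here, because only reads mapping to a single place were counted and the mouse nuclear genome holds a long copy of mitochondrial DNA on chromosome 1. Among windows of 75 bases along each mRNA, 99.9% of those of mt-Co3, 99.5% of mt-Co2 and mt-Atp6, 98.7% of mt-Nd4l, 97.8% of mt-Nd3 and 61.5% of mt-Nd4 occur letter for letter in another annotated gene, against 39.8% of mt-Co1, 5.71% of mt-Nd2, 1.66% of mt-Nd5 and 0% of mt-Nd1, mt-Cytb, mt-Atp8 and mt-Nd6. The genes with most of their windows shared stood at 24.6 (mt-Nd3) to 4284 (mt-Nd4) CPM per kb, and the other 7 at 83.8 (mt-Nd6) to 18430 (mt-Co1) CPM per kb, so that the ranges overlap. The length of the deposited reads is not given in the sources used here, so the window is an assumption. At baseline the median log2 fold change was -0.69 for the 6 genes with over 50% of windows shared, of which 5 were called lower, and -0.64 for the other 7, of which 2 were. For after PHx against baseline the medians of the 2 classes were -0.50 and -0.33 in WT and -0.24 and -0.13 in KO, and the difference between the classes was not tested. The annotated copies themselves, between 24611535 and 24616197 on chromosome 1 of mm10, held 77 to 5108 counts in a library. Adding the counts of each copy to those of its mitochondrial gene gave 8 mitochondrial calls at baseline in place of 7, with mt-Nd3 gained, and 4 in place of 3 for KO against WT after PHx, with mt-Nd4l gained. For after PHx against baseline it gave 4 in place of 5 in WT, where mt-Atp6 lost its call (-0.52, edgeR adjusted p = 0.0505), and 1 as before in KO.

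**Figure D2:**
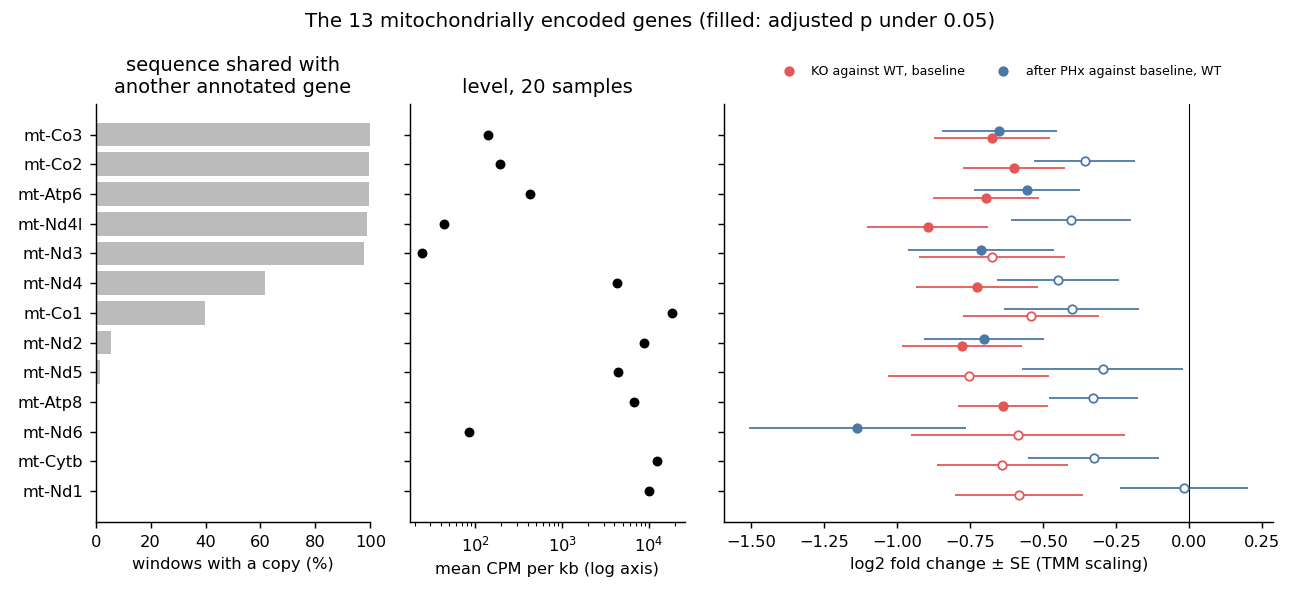
For the 13 mitochondrial genes, the share of 75-base windows with an identical copy in another annotated gene (left, percent), the mean level over 20 samples (middle, CPM per kb, log axis) and the log2 fold change ± SE under TMM scaling (right; filled points are called). Levels run from 24.6 (mt-Nd3) to 18430 CPM per kb (mt-Co1) and the ranges of genes with many and few shared windows overlap, while the fold changes of KO against WT at baseline lie between -0.90 and -0.54 for both kinds.

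After PHx in WT, the median fold change of the nuclear genes was below 0 in all 5 complexes under TMM scaling. Under plain totals the mean summed level went from 1045 to 806 CPM for complex II. It was about level for complex V (means 4005 and 3978, medians 4164 and 4223) and for complex IV (means 1821 and 1859, medians 1847 and 1851). The baseline means include WT baseline replicate 1, the library with 11.6% of its counts in Gm42418. The nuclear median was -0.39 under TMM scaling and -0.04 under plain totals, or -0.43 and -0.44 relative to all genes. Of the 79 nuclear members 20 fell and 1 rose, beside 8.68% of all genes called lower and 11.4% called higher. Fold changes lay below 0 for 74 of 79 under TMM scaling and 47 under plain totals, and 44 of the 79 had all 5 samples after PHx below all 5 at baseline under TMM scaling, as had 10.9% of all genes. Under plain totals 3 did, Ndufv3, Sdhb and Uqcr11. By complex 12 of 37 genes fell for complex I (median -0.49), 2 of 4 for complex II (-0.67), 2 of 8 for complex III (-0.39), 1 of 13 tested for complex IV (-0.33) and 3 of 17 for complex V (-0.35).

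Sdha and Sdhb, the catalytic pair of complex II, had the lowest fold changes among the called nuclear members of at least 1 CPM. Sdha was at 461, 329, 398, 222 and 446 CPM in the 5 WT samples after PHx, all below the lowest WT baseline value of 624. Its log2 fold change was -0.92 ± 0.22 (SE, n = 5 per group, edgeR adjusted p = 0.0075). Sdhb (ENSMUSG00000009863, chromosome 4, 140961203 to 140979193, plus strand), the iron-sulphur subunit, was at 224, 287, 249, 242 and 211 CPM at baseline and at 140, 163, 135, 119 and 129 CPM after PHx, again without overlap (-0.82 ± 0.19, edgeR adjusted p = 0.00588). In complex I the fall included Ndufv3, an accessory subunit of the NADH-oxidising module (-0.78, edgeR adjusted p = 0.00463), Ndufb3 (-0.73, 0.00107), Ndufv1, the flavoprotein that binds NADH (-0.60, 0.0193), and Ndufs1 (-0.53, 0.0288). The call of Ndufv1 was lost under plain totals (edgeR adjusted p = 0.201), with no filter (0.0863) and without WT PHx replicate 4 or 5, and that of Ndufs1 under plain totals (0.517), with no filter (0.132) and without WT baseline replicate 2 or 3 or WT PHx replicate 2, 4 or 5. Ndufs8, which carries iron-sulphur clusters near the ubiquinone site, was at 69.4, 40.4, 62.5, 20.6 and 71.7 CPM after PHx against 82.6 to 106 CPM at baseline; the groups did not overlap, and the gene was not called (-0.81, edgeR adjusted p = 0.0558). It was called with the mouse as a block (-1.08, edgeR adjusted p = 0.0496), with a time term (0.0445), by DESeq2 (0.047), and without WT PHx replicate 1 (0.0434). It was not called under plain totals (-0.44, edgeR adjusted p = 0.261), with no filter (-0.75, 0.121) or in the fit of only these groups (-0.78, 0.0671).

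Among the isoform genes Cox7a1 fell from low levels. Its counts were 10, 22, 18, 10 and 2 in WT at baseline and 4, 2, 9, 5 and 8 after PHx, which overlap, and the log2 fold change was -1.57 (edgeR adjusted p = 0.0492). That call was lost under plain totals (edgeR adjusted p = 0.103), with no filter (0.116), with a time term (0.0566), with the mouse as a block (0.289) and in every omission of 1 library but those of WT baseline replicate 5 and WT PHx replicate 3. Cox6b2 was called higher (4.36, edgeR adjusted p = 0.0257) on counts of 17, 0, 5, 1 and 136 after PHx, of which the sample of 136 at 48 h made most. The call was lost without that library, WT PHx replicate 5 (edgeR adjusted p = 0.196), without WT baseline replicate 1, 3, 4 or 5 (0.0561 to 0.0630), and with the mouse as a block (2.49, 0.403), and in the fit of only the WT groups the gene was not among those tested. The ubiquitous isoforms Cox4i1, Cox6a1, Cox6b1, Cox7a2, Cox7b and Cox8a lay between -0.40 and -0.16, and none was called. Atp5g2 and Atp5g3 lay at 0.15 and 0.02, and Atp5a1 and Atp5b at -0.32 and -0.37, all without a call. Under plain totals Atp5g2 was called higher (0.50, edgeR adjusted p = 0.0262).

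Of the mitochondrial genes 5 of 13 fell after PHx in WT, with a median over the 13 of -0.40 under TMM scaling and -0.06 under plain totals. These were mt-Nd6 (-1.14, edgeR adjusted p = 0.0359), mt-Nd3 (-0.71, 0.0493), mt-Nd2 (-0.70, 0.0205), mt-Co3 (-0.65, 0.0255) and mt-Atp6 (-0.55, 0.0374; lost when its nuclear copy was added). The gene mt-Nd2 was at 8514, 8583, 9352, 6565 and 8185 CPM after PHx, all below the lowest baseline value of 11756 CPM. In contrast mt-Nd1 was at 8424 to 15318 CPM after PHx and 9940 to 13498 CPM at baseline, which overlap (-0.02, edgeR adjusted p = 0.973). Only mt-Nd6 lies on the other strand, opposite mt-Nd5, and the strand setting of the counting is not given in the sources used here. All 5 calls were lost under plain totals and with no filter (for mt-Nd2 edgeR adjusted p = 0.0834 and 0.156, for mt-Nd6 0.0814 and 0.0617). With the mouse as a block only the call of mt-Nd6 was left among these 5. Of the 10 omissions of 1 library, 6 ended the call of mt-Nd6, 8 that of mt-Nd3, 7 that of mt-Atp6, 4 that of mt-Co3 and 3 that of mt-Nd2. Without WT PHx replicate 4 there were 6 nuclear calls and without replicate 5 there were 8, with 0 mitochondrial calls in both cases. Mitochondrial calls were 3 without WT PHx replicate 2, 2 without baseline replicate 1, 3 or 5 and 1 without baseline replicate 2. Without baseline replicate 1, 2 or 4 there were 12 nuclear calls and without baseline replicate 3 there were 11. Sdha, Sdhb, Ndufv3 and Ndufb3 held their calls in WT under each omission and under plain totals, where 5 nuclear genes were called lower and 3 higher. Of all 14661 genes tested, plain totals called 582 lower and 3796 higher in this comparison.

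In KO the same contrast gave 23 nuclear members that fell and 0 that rose, beside 12.1% of all genes called lower and 17.5% called higher. The nuclear median was -0.36 under TMM scaling and -0.14 under plain totals, or -0.46 and -0.51 relative to all genes, and 75 and 57 of 79 lay below 0. Complex II had the lowest median under TMM scaling, with 3 of 4 genes called (-0.61), followed by complex I with 14 of 37 (-0.41), complex V with 3 of 17 (-0.36), complex III with 2 of 8 (-0.31) and complex IV with 1 of 13 tested (-0.24). Only 4 of the 79 nuclear members, Ndufa6, Ndufb3, Ndufs5 and Sdha, had all samples after PHx below all at baseline under TMM scaling, beside 7.73% of all genes. Under plain totals 2 did, Ndufa6 and Sdhb.

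Sdha in KO went from 381, 476, 491, 447 and 394 CPM to 181, 184, 350, 225 and 361 CPM, so that the highest sample after PHx stayed below the lowest baseline sample (-0.75 ± 0.22 on the log2 scale, SE, n = 5 per group, edgeR adjusted p = 0.0170). Sdhb went from 160, 185, 194, 199 and 233 CPM to 125, 83.7, 165, 88.3 and 173 CPM, and these groups overlap (-0.62 ± 0.19, edgeR adjusted p = 0.0221). Ndufv3 fell (-0.74, edgeR adjusted p = 0.00536) and kept its call in every omission of 1 library. Sdhc, a membrane anchor of complex II, also fell (-0.61, edgeR adjusted p = 0.0372). The lowest fold changes among called nuclear members of at least 1 CPM were those of Ndufb2, an accessory subunit of the membrane arm (-0.81, edgeR adjusted p = 0.0418), and Ndufs8 (-0.80, 0.0451). Both calls were lost under plain totals (edgeR adjusted p = 0.0894 and 0.129), with no filter and in the fit of only these groups; among omissions of 1 library, that of Ndufb2 was kept without KO baseline replicate 7 or KO PHx replicate 10, and that of Ndufs8 without KO PHx replicate 10. Ndufs8 stood at 25.9, 29.7, 78, 37.1 and 39.7 CPM after PHx, where the sample at 78 CPM, KO PHx replicate 10, lies within the baseline range of 61.2 to 85.4 CPM. Ndufb2 overlaps Braf and Gm16272 on the opposite strand and Gm42420 on the same strand, and 228 of its 5750 windows of 75 bases are shared with other genes. Cox7a1 fell (-1.60, edgeR adjusted p = 0.0287), a call lost under plain totals (0.0533), with no filter (0.0586), with the mouse as a block (0.0821) and without KO baseline replicate 11 or 12 or KO PHx replicate 7, 8 or 12. Ndufa4 fell (-0.56, edgeR adjusted p = 0.0311), a call lost under plain totals (0.0652), with no filter (0.0661), in the fit of only these groups (0.121) and without KO baseline replicate 8, 10, 11 or 12 or KO PHx replicate 7, 8 or 11. Cox6b2 lay at 0.26 (0.859), with 46, 124, 96, 140 and 7 counts after PHx.

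The 5 KO livers after PHx were spread widely. The summed level of all 84 nuclear genes was 8852, 6994, 12577, 6983 and 11476 CPM in replicates 7, 8, 10, 11 and 12, and the TMM factors of the same libraries were 1.27, 1.5, 1.14, 1.51 and 0.98. The samples with the higher sums, replicates 10 and 12, are from 40 h and 30 h, while replicate 11 with the lowest sum is also from 40 h. Without replicate 10 the count of nuclear calls for after PHx against baseline in KO was 42 in place of 23. It was 4 without replicate 7 or 8 and 6 without replicate 11, and without baseline replicates 10, 11 and 12 it was 10, 8 and 5. Under plain totals 6 nuclear genes were called lower, among them Sdha, Sdhb and Ndufv3, and 0 higher. Of all 14661 genes tested, plain totals called 961 lower and 4059 higher in this comparison. The call of Sdha was lost without KO PHx replicate 7 (edgeR adjusted p = 0.0628) or 8 (0.0615) and in the fit of only these groups (0.0671), and that of Sdhb without KO PHx replicate 7, 8 or 11 or KO baseline replicate 12 and in that fit (0.11). Of the 13 mitochondrial genes only mt-Co3 fell (-0.59, edgeR adjusted p = 0.0314), 9 of 13 lay below 0 under TMM scaling and 7 under plain totals, and the median was -0.22 under TMM scaling and -0.01 under plain totals. That call was lost under plain totals (edgeR adjusted p = 0.0724), with no filter (0.0667), in the fit of only these groups (0.123), and without KO baseline replicate 8, 10, 11 or 12 or KO PHx replicate 7, 8 or 11, and there were 2 without KO PHx replicate 10.

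The WT and KO lists of nuclear genes that fell after PHx, which come from separate samples, have 13 genes in common, 65.0% of the WT list and 56.5% of the KO list. Over all genes tested the lower lists of 1273 genes in WT and 1770 in KO share 812 genes, which is 63.8% and 45.9%. The 13 shared members are Sdha and Sdhb of complex II, Ndufa6, Ndufa9, Ndufa13, Ndufb5, Ndufb11, Ndufs6 and Ndufv3 of complex I, Uqcr11 of complex III, Cox7a1 of complex IV, and Atp5c1 and Atp5j of complex V. The difference of the responses, KO minus WT, was called for 0 of 79 nuclear and 0 of 13 mitochondrial genes, beside 0.164% of all genes called higher and 0.225% called lower. At an unadjusted p under 0.05 there were 2 nuclear genes and 0 mitochondrial genes, and DESeq2 also called none. Cox6b2 had the largest difference (-4.10 ± 1.65, edgeR adjusted p = 0.279). The median difference was 0.04 for nuclear genes, 0.26 for mitochondrial genes and 0.00 for all genes tested under TMM scaling. Under plain totals these medians were -0.09, 0.14 and -0.09, with 56 of 79 nuclear and 3 of 13 mitochondrial genes below 0, where TMM scaling had 29 and 0. The 13 of 13 mitochondrial genes above 0 under TMM scaling ran from 0.06 (mt-Co3) to 0.72 (mt-Nd6). A missed threshold does not show that the responses were alike: for Sdha the difference was 0.17 ± 0.31 (SE) on the log2 scale.

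**Figure D3:**
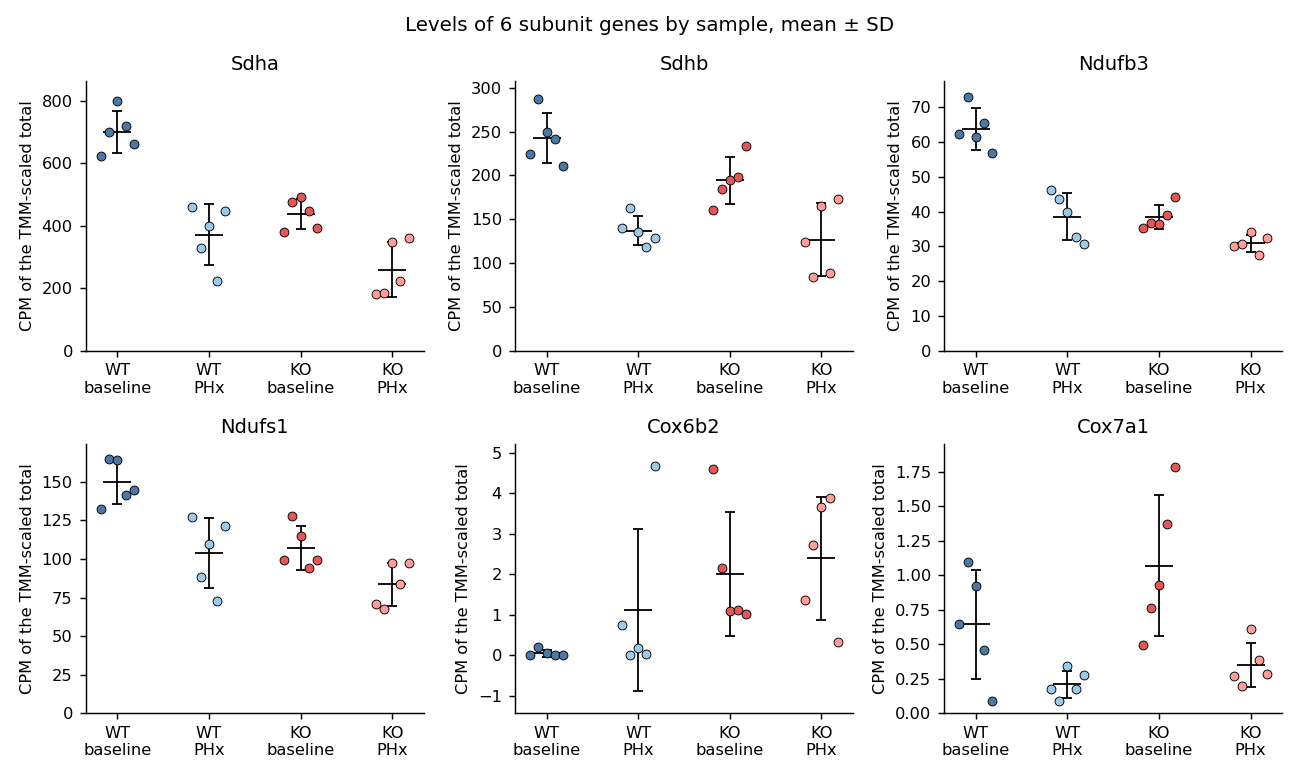
Levels (vertical axis, CPM of the TMM-scaled total) of Sdha, Sdhb, Ndufb3, Ndufs1, Cox6b2 and Cox7a1 in each of the 20 samples, with the mean and SD of each group of 5. Sdha runs from 624 to 801 CPM in WT at baseline, above every sample of the other groups, while Cox6b2 is near 0 in WT at baseline and reaches 4.67 CPM in 1 WT sample after PHx.

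After PHx, KO livers differed from WT livers in few subunit genes. Among nuclear members 1 fell and 0 rose, beside 8.20% of all genes called lower and 16% called higher, and among mitochondrial genes 3 of 13 fell. The nuclear gene was Ndufa3, a small accessory subunit of complex I, at 62.9, 70.9, 72.6, 58.4 and 55.4 CPM in WT and 38.0, 28.4, 63.0, 35.8 and 49.7 CPM in KO. The KO sample at 63.0 CPM, replicate 10, lies inside the WT range, and the log2 fold change was -0.58 ± 0.19 (SE, n = 5 per group, edgeR adjusted p = 0.0332). Ndufa3 overlaps Tfpt on the opposite strand, and none of its 75-base windows is shared with another gene. The mitochondrial genes were mt-Co3 (-0.61, edgeR adjusted p = 0.0287), mt-Co2 (-0.50, 0.0396) and mt-Atp8 (-0.44, 0.0437). These 3 calls and that of Ndufa3 were lost under plain totals (edgeR adjusted p of 0.202 for mt-Co3, 0.398 for mt-Co2, 0.743 for mt-Atp8 and 0.292 for Ndufa3), with no filter, and in the fit of only these groups (0.166, 0.203, 0.249 and 0.154 in the same order).

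The median was -0.23 for nuclear members under TMM scaling and 0.10 under plain totals, or -0.22 and -0.26 relative to all genes, and 76 of 79 lay below 0 under TMM scaling against 19 under plain totals. For mitochondrial genes it was -0.41 and -0.07, or -0.40 and -0.44 relative to all genes. No nuclear member and no mitochondrial gene had every KO sample below every WT sample after PHx, beside 2.97% of all genes. Sdha was at -0.51 (edgeR adjusted p = 0.0976), Ndufb3 at -0.32 (0.0831) and Cox6b2 at 1.08 (0.459). Sdha was called with a time term (-0.56, edgeR adjusted p = 0.0398) and without WT PHx replicate 4 (0.0466), KO PHx replicate 10 (0.0335) or 12 (0.0357), and Ndufb3 without WT PHx replicate 5 (0.0483) or KO PHx replicate 10 (0.0488). Without WT PHx replicate 5, the WT library with 136 counts of Cox6b2, that gene was at 3.30 (edgeR adjusted p = 0.0217). Without KO PHx replicate 10 the nuclear calls rose from 1 to 29. They were 3 without KO PHx replicate 12 or WT PHx replicate 4 or 5, and 0 without KO PHx replicate 7, 8 or 11 or WT PHx replicate 2 or 3. Ndufa3 lost its call in these last 5 omissions and without WT PHx replicate 5. Mitochondrial calls were 7 without KO PHx replicate 12, 1 without WT PHx replicate 1 or 5, and 0 without KO PHx replicate 7, 8 or 11 or WT PHx replicate 2 or 3.

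Taken by time point, with 2 samples an arm, KO against WT at 40 h gave 1 nuclear member called higher, Cox6b2 (5.19, edgeR adjusted p = 0.0437), and 0 lower, beside 8.61% of all genes called higher and 4.68% called lower. That rise rests on 0 and 5 counts in WT PHx replicates 2 and 3 and on 96 and 140 in KO PHx replicates 10 and 11. At 48 h Cox6b2 was at -0.20 (edgeR adjusted p = 0.927). At 40 h mt-Nd4 (-0.97, edgeR adjusted p = 0.0359) and mt-Nd5 (-1.09, 0.0369) fell. At 48 h Ndufa3 (-0.78, edgeR adjusted p = 0.0492), Sdha (-0.87, 0.0393) and mt-Co3 (-0.78, 0.0347) fell, and 0 members rose, beside 10.7% of all genes called lower and 13.7% called higher. The nuclear median was -0.27 at both times, while the mitochondrial median was -0.69 at 40 h and -0.33 at 48 h. At 30 h there is 1 sample an arm and no test. Whether the times differ from each other was not tested.

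Summed over all 84 genes, nuclear OXPHOS mRNA was at 14756 ± 1097 CPM in WT at baseline, 10965 ± 1250 in WT after PHx, 11959 ± 1539 in KO at baseline and 9377 ± 2566 in KO after PHx (SD, n = 5 each). The 5 WT samples after PHx, at 9023 to 12036 CPM, all lay below the 5 at baseline, at 13471 to 16148 CPM, whereas KO at baseline reached up to 13897 CPM. The 13 mitochondrial genes summed to 102295 ± 6669, 79257 ± 15180, 66041 ± 6545 and 60307 ± 17473 CPM in the same order. As a share of all counts with no rescaling, mitochondrial genes made 7.81%, 7.70%, 7.0% and 7.40% and nuclear members 1.13%, 1.07%, 1.26% and 1.16%, so that the nuclear share was higher in KO at baseline than in WT and the scaled sum was lower. The ratio of mitochondrial to nuclear counts needs no scaling. It was 6.94 ± 0.37 in WT at baseline (6.53 to 7.37), 5.57 ± 0.68 in KO at baseline (4.82 to 6.51), 7.27 ± 1.33 in WT after PHx (5.94 to 8.89) and 6.48 ± 1.06 in KO after PHx (5.14 to 7.57), each as mean ± SD (n = 5) with its range. The baseline groups did not overlap, with every KO ratio below every WT ratio, and the groups after PHx did.

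**Figure D4:**
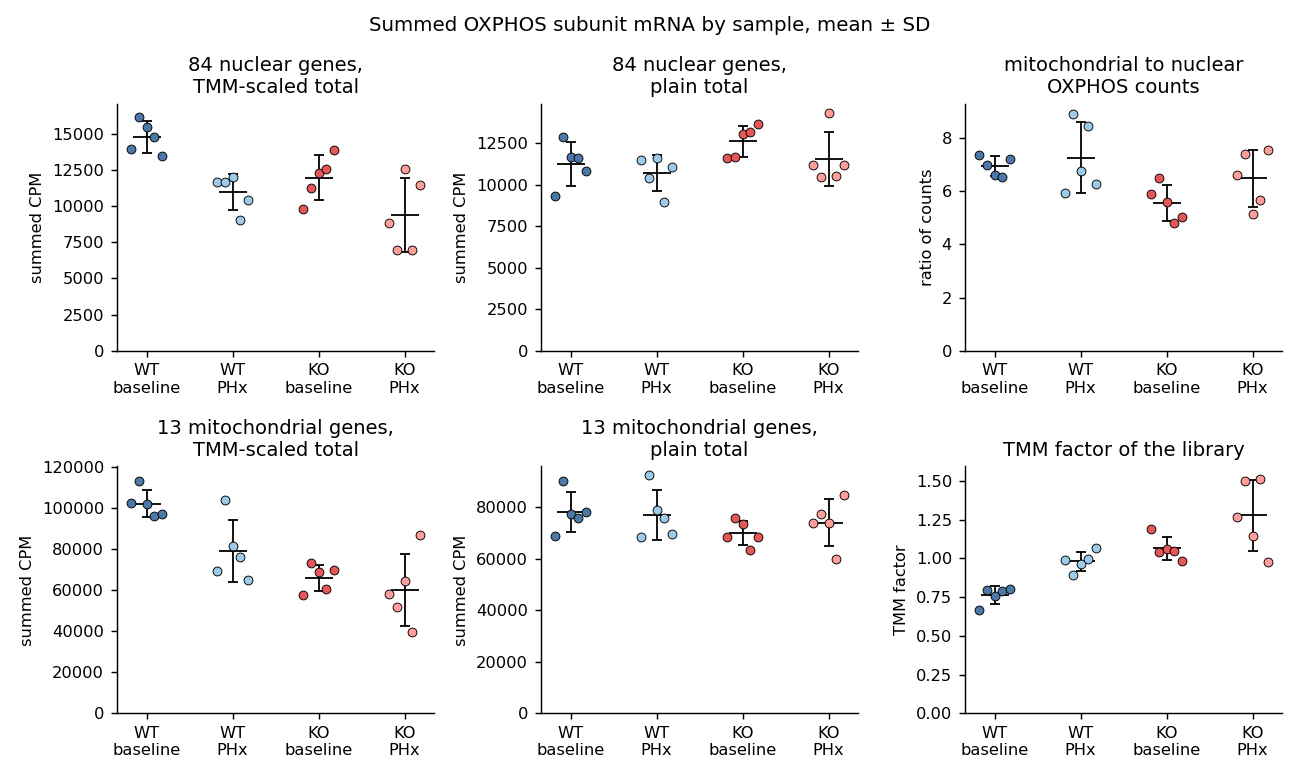
Summed OXPHOS levels in CPM by sample, with mean and SD of each group of 5, for nuclear and mitochondrial genes under TMM-scaled totals (left) and plain totals (middle), with the ratio of mitochondrial to nuclear counts and the TMM factor (right). The nuclear sum of KO at baseline lies under that of WT with TMM-scaled totals (11959 against 14756 CPM) and over it with plain totals (12639 against 11274 CPM), while the ratio, 5.57 against 6.94, uses no scaling.

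**Figure D5:**
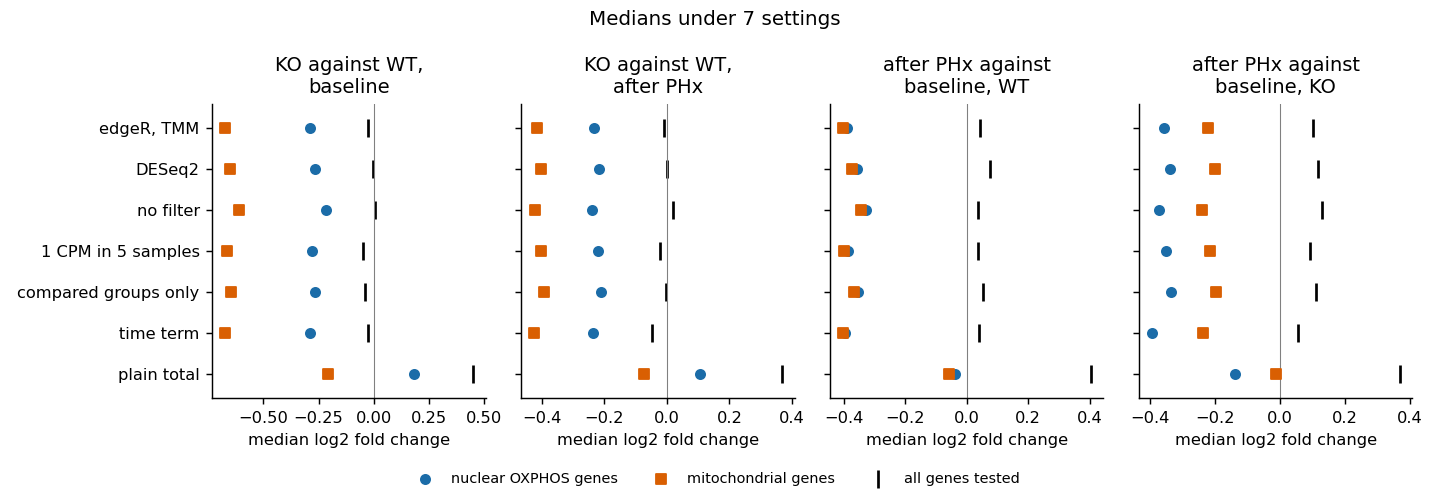
Median log2 fold change (horizontal axis) of the nuclear OXPHOS genes, the mitochondrial genes and all genes tested in 4 comparisons, under 7 settings named on the vertical axis. Plain totals move all 3 medians to the right together, the nuclear ones past 0 for KO against WT at baseline (0.18) and after PHx (0.10), while the nuclear genes stay 0.22 to 0.51 below the median of all genes under TMM scaling and under plain totals.

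Genes that serve the complexes were described by list. Of 50 assembly factors tested, which insert cofactors and join subunits, 2 fell and 0 rose in KO at baseline (median -0.20), 7 fell and 1 rose in KO against WT after PHx (-0.37), 5 fell and 1 rose after PHx in WT (-0.22) and 12 fell and 3 rose after PHx in KO (-0.36). Of all genes tested, 4.89%, 8.20%, 8.68% and 12.1% were called lower and 11.1%, 16%, 11.4% and 17.5% higher in these comparisons, which is the background for this list and those that follow. Of 31 factors of mitochondrial gene expression and biogenesis the counts were 5 lower and 1 higher (-0.33), 6 and 1 (-0.04), 3 and 2 (-0.16), and 1 and 3 (0.07) in the same order of comparisons. The gene called higher in KO at baseline was Myc (2.21, edgeR adjusted p = 0.0245), picked after its values were seen. Lrpprc, the lowest of the list in that comparison, whose protein stabilises mitochondrial mRNAs, was at 145 ± 11.7 CPM in WT and 63.9 ± 13.3 CPM in KO at baseline (SD, n = 5), with no overlap and a log2 fold change of -1.18 (edgeR adjusted p = 0.000627). After PHx it was lower in KO as well (-0.70, edgeR adjusted p = 0.0190). The coactivators Ppargc1a and Ppargc1b, the factors Esrra, Nrf1 and Gabpa, and Tfam and Polrmt, which act on mitochondrial DNA, were not called in any of these 4 comparisons.

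The TCA cycle enzymes, 18 genes, had 1 lower and 0 higher (-0.25), 0 and 1 (-0.20), 3 and 1 (-0.09), and 2 and 2 (0.02). Mitochondrial ribosomal proteins, 77 genes tested, had 7, 13, 3 and 4 lower and 0, 0, 0 and 5 higher, with medians of -0.25, -0.25, -0.10 and -0.05. Cytosolic ribosomal proteins, 81 genes tested and also short, abundant mRNAs, had 10, 7, 1 and 0 lower and 0, 0, 4 and 0 higher, with medians of -0.28, -0.33, 0.17 and 0.15. In KO against WT at baseline the median of the cytosolic ribosomal proteins was thus close to the -0.29 of the nuclear OXPHOS genes, and for after PHx against baseline the signs of these medians were opposite. All these medians are under TMM scaling.

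Of 14 tested OXPHOS-linked genes that the naming rule leaves out, 1 fell and 2 rose in KO at baseline (median -0.20), 1 fell and 2 rose in KO against WT after PHx (-0.21), 1 fell and 4 rose after PHx in WT (0.01), and 1 fell and 2 rose after PHx in KO (-0.07). The following were picked after their values were seen. Slc25a4, the ADP/ATP carrier of heart and muscle, was at 3.55 ± 1.02 CPM in WT and 34.7 ± 5.76 CPM in KO at baseline (SD, n = 5), and at 8.29 ± 2.56 and 117 ± 44.4 CPM after PHx, with log2 fold changes for KO against WT of 3.29 (edgeR adjusted p = 5.95e-07) and 3.82 (1.25e-07). Ucp2, an inner membrane carrier, was called higher in all 4 comparisons, with log2 fold changes of 2.26 (edgeR adjusted p = 6.14e-06), 1.77 (4.69e-05), 2.49 (5.87e-06) and 2.00 (0.000198). Etfdh, which passes electrons from fatty acid oxidation to ubiquinone, was lower in KO at baseline (-0.82, edgeR adjusted p = 0.00274) and after PHx (-0.51, 0.0356). Plain totals and the other alternatives were not run for genes outside the naming rule, so the calls of Slc25a4, Ucp2, Etfdh, Lrpprc and Myc were not checked in that way.

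Markers of the cells in the tissue moved beside these results. All sums and calls of markers are under TMM scaling, and plain totals were not run for them. The 11 hepatocyte markers had 2 lower and 0 higher in KO at baseline and summed to 146963 to 167921 CPM in WT and 101052 to 130361 CPM in KO. Their sums were 98390 to 165512 CPM in WT and 58614 to 132262 CPM in KO after PHx, with 3 lower in KO against WT after PHx, 2 lower after PHx in WT and 3 lower after PHx in KO. Macrophage markers summed to 240 to 411 CPM in WT at baseline and 628 to 804 CPM in KO at baseline (6 of 12 higher), and to 101 to 487 and 185 to 547 CPM after PHx (4 of 12 higher in KO). After PHx 2 macrophage markers rose and 1 fell in WT, and 1 rose and 4 fell in KO. Stellate and fibroblast markers summed to 281 to 457 CPM in WT and 626 to 763 CPM in KO at baseline (6 of 12 higher), and to 247 to 372 and 374 to 725 CPM after PHx (5 of 12 higher); after PHx 1 fell in WT and 2 in KO. In a bulk sample, fewer cells of a type and less RNA per cell cannot be told apart, and the part of these cells in the OXPHOS values was not tested.

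Cholangiocyte markers summed to 34.2 to 80.0 CPM in WT and 75.8 to 387 CPM in KO at baseline, and to 35.6 to 258 and 140 to 852 CPM after PHx, with 1 of 9 tested higher in KO at baseline, 6 in KO after PHx, 1 after PHx in WT and 5 after PHx in KO. Endothelial markers, 12 genes, had 2 higher in KO at baseline and 1 in KO after PHx, and 3 lower after PHx in WT, while in KO 3 fell and 1 rose; their sums were 268 to 319 CPM in WT and 331 to 388 CPM in KO at baseline, and 139 to 246 and 149 to 294 CPM after PHx. Blood cell markers, 9 tested, had 2 higher and 1 lower, 0 and 3, 2 and 1, and 0 and 2 in the order of comparisons used above. Of 12 striated muscle markers 9 were at 0 in every WT baseline library, 8 in WT after PHx, 5 in KO at baseline and 3 in KO after PHx, while none of the other marker lists had a gene at 0 throughout a group. Only 1 muscle marker passed the filter and it was not called, and the sums were 0.183 to 1.42 CPM in WT and 0.332 to 0.793 CPM in KO at baseline, and 0.217 to 0.698 and 1.18 to 3.22 CPM after PHx. The 14 cycling genes all rose after PHx in WT, 2 rose after PHx in KO, and 3 were higher in KO at baseline; their sums were 31.9 to 37.7 CPM in WT and 66.1 to 196 CPM in KO at baseline, and 49.2 to 1277 and 150 to 1386 CPM after PHx. Their part in the lower OXPHOS levels after PHx was not tested.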

How the data were processed

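Poly(A) RNA of 20 liver samples was sequenced as TruSeq libraries, paired-end, on a NovaSeq, per the labels. The deposited tables hold raw counts of uniquely mapped reads per Ensembl gene on mm10, with no normalisation, per the labels' design text. FastQC 0.11.5 appears in both sources, while the design text names fastp 0.20.0 and the submitters' processing notes name Trimmomatic 0.36 for trimming. The aligner, the counting program and the strand setting are not given in the sources used here. GENCODE M21 names 46005 of the 46603 identifiers.

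Counts were tested with edgeR 4.0.16 (quasi-likelihood, two-sided, TMM, filterByExpr on 4 groups, 14661 genes left) in 1 fit of 4 group means over all 20 samples, in R 4.3.3. A second fit with a mean per genotype and time point gave 40 h and 48 h. Adjusted p-values are Benjamini-Hochberg over all genes tested. The test was also run on simulated counts in which a small share of the genes was changed and the group means were otherwise equal. Its outcome is not given here, and such counts cannot decide between the scalings. DESeq2 1.42.0, plain library totals, other filters, fits of the compared groups only, a time term, mitochondrial genes kept out of the totals, a mouse block and the omission of each sample were alternatives. Summing mitochondrial genes with their nuclear copies was added after the data were seen.

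Libraries held 21634890 to 30461351 counts. CPM are counts scaled to a TMM-adjusted library of 1000000. Counts carry no molecular identifiers, and p-values measure the spread between the mice of a group. Per the labels each mouse was sampled before and after PHx. The title of WT baseline replicate 1 lacks a number, so that 9 mice enter the block; residuals of same-numbered samples correlated at -0.10 to 0.19.

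The members, the lists (assembly factors, mitochondrial expression and biogenesis factors, TCA cycle, OXPHOS proteins outside the naming rule, both ribosomes, and hepatocyte, macrophage, endothelial, cholangiocyte, stellate, muscle, blood and cycling markers) and the tests were chosen with earlier results of these data known. Genes are named if mitochondrial, if core or isoform subunits, or if among the 3 highest or 3 lowest called nuclear members of a comparison with a mean of at least 1 CPM, as are Ppargc1a, Ppargc1b, Esrra, Nrf1, Gabpa, Tfam, Polrmt and Lrpprc of the other lists; others are named only to complete a count or where marked as picked later. The values of 1 gene that the naming rule covers are not reported here.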

Additional observations from a re-analysis of the deposited data

Results flagged for a closer look

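The check covered 216 groups of 5 samples. Each was a tested named gene, a summed OXPHOS level or the ratio of mitochondrial to nuclear counts, in 1 of the 4 groups. In 10 of them, all for genes, a sample's gap to the nearest other sample was more than 0.71 of the range of the group. Chance alone gives about 1 in 20. For mt-Nd6 WT PHx replicate 5 was at 22.3 CPM, below the 30.3 to 33.2 CPM of the others, and KO baseline replicate 12 at 89.3 CPM, above 24 to 41.4 CPM. Ndufa4l2 was at 2.45 CPM in KO PHx replicate 11 against 0.154 to 0.568 CPM, and Ndufb2 at 7.37 CPM in WT PHx replicate 1 against 4.78 to 5.25 CPM. Ndufs8 was at 78 CPM in KO PHx replicate 10 against 25.9 to 39.7 CPM in the other KO livers after PHx. For Cox6b2 WT baseline replicate 2 was at 0.20 CPM, which is 4 counts, against 0 to 0.0515 CPM, and WT PHx replicate 5 at 4.67 CPM against 0 to 0.741 CPM. Cox6b1 was at 253.8 CPM in WT baseline replicate 2 against 211.9 to 224 CPM, Atp5b at 892.8 CPM in WT PHx replicate 4 against 1123 to 1207 CPM, and Atp5g2 at 19 CPM in WT PHx replicate 2 against 13.3 to 14.9 CPM. WT PHx replicate 5 and WT baseline replicate 2 each appear for 2 genes and the other 6 libraries for 1 each.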

How the results depend on the processing

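Counts of calls moved with the setting, and the cause was not tested unless named. In the order KO against WT at baseline, the same after PHx, then the change with PHx in WT and in KO, nuclear calls were 4, 1, 21 and 23, and mitochondrial calls 7, 3, 5 and 1. Plain library totals gave 1, 0, 8 and 6 nuclear calls, with 1 higher and 0 lower at baseline where 3 lower stood before, and 0 mitochondrial calls in each comparison. Of all 14661 genes tested, plain totals called 3521 higher and 113 lower at baseline. The share of all genes called is not given here for the settings that follow. No filter gave 2, 0, 8 and 7 nuclear and 1, 0, 0 and 0 mitochondrial calls. Fits of only the groups compared gave 31 nuclear and 12 mitochondrial calls at baseline, 0 and 0 for KO against WT after PHx, 30 and 6 after PHx in WT, and 4 and 0 after PHx in KO. A time term gave 7 nuclear calls at baseline and 3 for KO against WT after PHx, and DESeq2 gave 7 nuclear and 11 mitochondrial calls at baseline and 4 nuclear calls after PHx. With the mouse as a replicate block there were 15 nuclear and 1 mitochondrial calls in WT, and 21 and 1 in KO. The pairing rests on the labels, and the block fit leaves out replicate 1 of both WT groups. Calls of Cox6b2 and Cox7a1 in WT and of Cox7a1 in KO were lost with the block. So were those of mt-Nd2, mt-Nd3, mt-Co3 and mt-Atp6 in WT, while Ndufs8 in WT was gained. Omission of WT baseline replicate 1 without a block also ended the WT calls of Cox6b2, Cox7a1, mt-Nd2, mt-Nd3 and mt-Atp6. Keeping mitochondrial genes out of the totals changed no count.

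Leaving out each sample in turn gave 2 to 3 nuclear and 1 to 7 mitochondrial calls at baseline, 0 to 29 and 0 to 7 for KO against WT after PHx, 6 to 21 and 0 to 4 after PHx in WT, and 4 to 42 and 0 to 2 after PHx in KO. The difference of the responses had 0 calls under each alternative run. Of 210 results for single genes 37 were called and none changed direction among the called; plain totals ended 28 of these calls and no filter 26, while 134 results were not called under any alternative run. Of these 37 calls, those of Ndufb3, Cox6b2 and mt-Nd4l at baseline, of Ndufb3, Ndufv3, Sdha and Sdhb after PHx in WT and of Ndufv3 after PHx in KO survived every omission of 1 sample. Depth limits the low isoform genes, where Cox6b2 in WT at baseline rests on 5 counts.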
